A study of Mus musculus with 12 samples.

Results

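The 10 genes described here encode enzymes that oxidise alcohols and aldehydes or use the acetate that is left, and they were followed in every cluster of the embryonic mouse cortex. They were chosen by name, with earlier results of these data known, and are Adh5, Aldh2, Aldh1b1, Aldh3a2, Aldh5a1, Aldh7a1, Aldh9a1, Cat, Acss1 and Acss2, out of 23513 genes in the deposited count tables. C57BL/6J dams received saline or 2.5 g/kg ethanol (EtOH) by intraperitoneal injection, 6 times from E8.5 to E13.5, and cortices were collected at E14.5 according to the methods, while the labels give embryonic day 14. Nuclei of 5 saline embryos (2 from dam S1 and 3 from dam S2) and 6 EtOH embryos (2 from dam E1 and 4 from dam E2) were profiled by droplet-based single nucleus RNA sequencing (snRNAseq), 1 embryo per library, where batch 1 held S1 and E1 and batch 2 held S2 and E2. The authors grouped the nuclei into 25 clusters, here assigned to radial glial cells (RGC, Clusters 2, 3, 12, 20 and 21), intermediate progenitor cells (IPC, Clusters 6 and 17), projection neurons (PN, Clusters 1, 4, 8, 9, 16, 22, 24 and 25), interneurons (Int, Clusters 5, 7, 10, 13, 15, 18 and 23), and Clusters 11, 14 and 19 outside these classes. The embryo was the replicate throughout, and because each treatment came from 2 dams, the tests below take littermates as independent. EtOH was thus an exposure of the dam, and alcohol levels were not analysed here.

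Alcohol dehydrogenases and catalase oxidise ethanol to acetaldehyde, a reactive compound that binds proteins and DNA. Aldehyde dehydrogenases of the mitochondria oxidise acetaldehyde to acetate, and short-chain acyl-CoA synthetases join acetate to coenzyme A, giving the acetyl-CoA used for energy, lipids and histone acetylation. Most ethanol is cleared in the liver, and in the brain catalase is held to carry more of the first step than the alcohol dehydrogenases of the liver do. Adh5 encodes the class III alcohol dehydrogenase, whose main substrate is the formaldehyde adduct of glutathione. Several members are named for the superfamily but are known for other aldehydes, formed from lipids, GABA, lysine and the precursors of carnitine.

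The tables held 50550 nuclei, of which 30349 were from saline and 20201 from EtOH embryos, with 2346 to 7639 nuclei per embryo. Depth differed between the groups. Saline embryos had 44017566 to 83061737 UMIs (unique molecular identifiers, which count RNA molecules) and medians of 6325 to 9051 UMIs per nucleus, while EtOH embryos had 14078316 to 38034349 UMIs and medians of 4071 to 6911 per nucleus. Saline embryo S2-4, with the lowest median of its group (6325 UMIs), lay within the EtOH range. Any pair of embryos shared 1 to 18 cell barcodes, at most 0.384% of the smaller library. Markers of non-neuronal cells were still present. Their sum over 22 genes was 57.0 to 281 counts per 1000000 UMIs (CPM) in saline embryos, the highest being S2-2 at 281 and S2-4 at 131. In EtOH embryos it was 83.8 to 111 CPM. Beside markers of the cells that the authors had removed, this list held globin and choroid plexus genes. Of these Ttr reached 734 CPM in Cluster 21, so the sum does not measure the removed cells alone. Of this list 1 of 20 tested genes was called higher by the test used below, in a fit that called 12.1% of all genes. This was the microglial receptor P2ry12 (9.61 ± 3.97 CPM in saline, n = 5, and 17 ± 1.99 CPM in EtOH, n = 6, SD, edgeR adjusted p = 0.0223). Negative fold changes were found for 15 of the 20, and the share of all genes with each sign is not given here. Over all clusters the other markers of microglia and oligodendrocyte precursors were at 0.487 CPM (Ly86), 0.0792 CPM (C1qa), 1.89 CPM (Pdgfra), 1.23 CPM (Olig2) and 0.111 CPM (Olig1), but P2ry12 reached 76.3 CPM in Cluster 11, Olig2 10.7 CPM in Cluster 3 and Pdgfra 19.9 CPM in Cluster 21. For 1 marker of each class the level followed the name, as Hes1 was at 47.0 to 99.4 CPM in the RGC clusters and at most 26.3 elsewhere, Eomes at 202 and 414 CPM in the IPC clusters and at most 67.4 elsewhere, and Gad2 at 608 to 1248 CPM in the Int clusters, with Cluster 11 alone reaching a similar level (1172 CPM). Neurod2 was at 80.2 to 294 CPM in the PN clusters and reached 106 CPM in IPC Cluster 17. Other markers crossed the classes. Sox2 was at 106, 85.3 and 66.4 CPM in Int Clusters 23, 10 and 5, above RGC Clusters 2 and 12 (45.1 and 43.0 CPM), Pax6 reached 194 CPM in Cluster 17 against 69.9 CPM in RGC Cluster 21, RGC Cluster 3 held Dlx1 (98.7 CPM), and Cluster 14 held Tbr1 (87.9 CPM). Transcripts of other tissues were found in every cluster, as the globin gene Hbb-bs was at 6.37 to 20.97 CPM, and the choroid plexus gene Ttr at 5.0 to 15.3 CPM outside Cluster 21. Summed RGC markers overlapped between the groups (298 to 345 CPM in saline and 291 to 371 CPM in EtOH). The part of these differences in the results below was not tested except where values are given.

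All levels are CPM, the UMIs of a gene per 1000000 UMIs of the same embryo and cluster, given as the mean ± SD over embryos with at least 10 nuclei. Levels are compared between clusters and embryos of 1 gene. They are not compared between genes, other than where levels are set beside Hbb-bs or Igfbpl1. A gene in a cluster was called too low to judge for the effect of EtOH where the median embryo of either group had fewer than 10 UMIs of it. By this rule 122 of the 250 pairs of a member and a cluster were too low and 128 could be judged. All 10 members were too low in Cluster 21 (cortical hem RGC), Cluster 23 (Migrating Int 2) and Cluster 24 (PN 2), while no member was too low in Clusters 1, 3, 4, 7 and 8, which are among the larger clusters. Aldh9a1 was too low in 20 of 25 clusters and Aldh5a1 in 18. Adh5, Aldh2 and Aldh3a2 were each too low in 15, Cat in 11 and Aldh1b1 in 10. Acss1 was too low in 9, Aldh7a1 in 5 and Acss2 in 4. Summing clusters removed most of the limit, as no member was too low in RGC, PN, Int or all clusters summed, and Aldh5a1 and Aldh9a1 were the members too low in the 2 IPC clusters summed.

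Acss1 and Aldh1b1 were the members whose level stood out by cell type, Acss1 in Cluster 3 (Int Precursors) and Cluster 12 (Non-mitotic RGC) and Aldh1b1 in Cluster 6 (Non-mitotic IPC). For each of these genes the cluster with the highest level exceeded all 24 other clusters by more than the SD of the within-embryo difference. The other 8 members varied less, by at most 2.45-fold between clusters that could be judged, and no neighbours in their order of the 25 clusters differed beyond their spread. The clusters were formed from the expression of the same nuclei, so the differences between clusters are described and not tested.

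**Figure D1:**
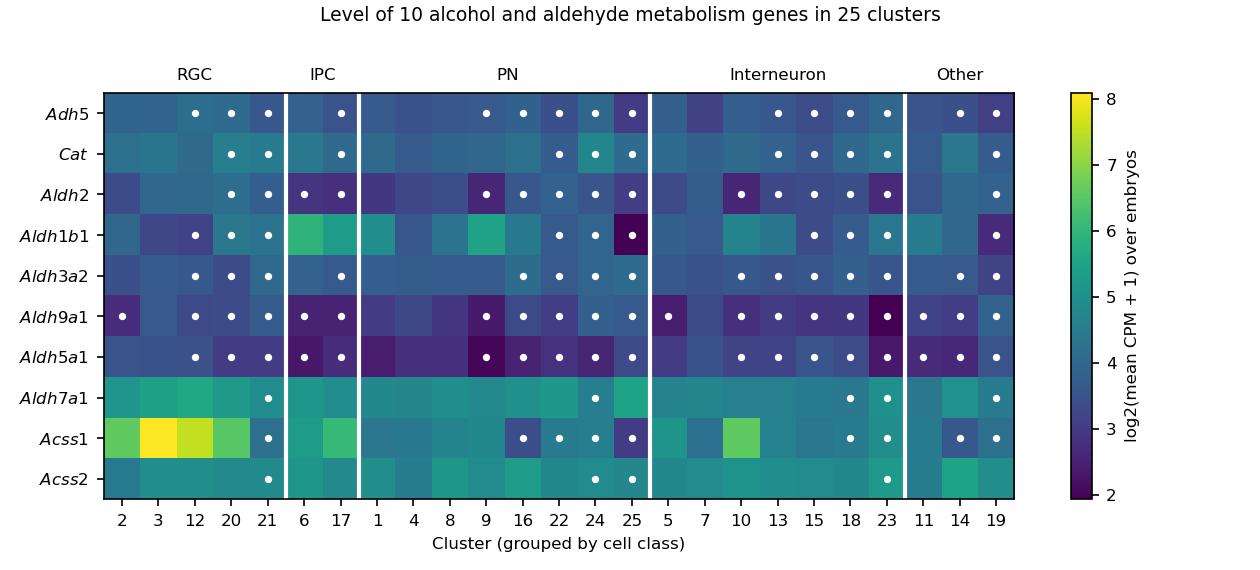
Level of the 10 members in the 25 clusters, as log2(mean CPM + 1) over embryos in colour, with genes as rows, clusters as columns grouped by cell class and a white dot where the gene was too low to judge for EtOH. Acss1 was highest in Clusters 3 and 12 (273 and 184 CPM) and Aldh1b1 in Clusters 6 and 9 (60.4 and 44.2 CPM), while the other rows vary less.

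Acss1 encodes the mitochondrial acetyl-CoA synthetase, which turns acetate into acetyl-CoA for the citric acid cycle. Its highest level was 273 ± 19.99 CPM in Cluster 3 (Int Precursors, n = 11 embryos), followed by 184 ± 27.4 CPM in Cluster 12 (Non-mitotic RGC). These came before Cluster 2 (RGC 1) at 95.3 ± 19.9 CPM, Cluster 10 (Late Int Precursor) at 93.2 ± 9.36 CPM and Cluster 20 (RGC 2) at 89.1 ± 55.7 CPM (n = 9). In every one of 11 embryos Cluster 3 was above Cluster 12, by 88.4 ± 30.1 CPM, and Cluster 12 was above Cluster 2, by 88.9 ± 29.0 CPM. Further down the order, Cluster 17 (Mitotic IPC, 66.1 ± 17.9 CPM) lay above Cluster 6 (Non-mitotic IPC, 39.2 ± 10.9 CPM) in 11 of 11 embryos, by 26.8 ± 18.9 CPM. The other 21 pairs of neighbours were within their spread. The lowest cluster in which Acss1 could be judged was Cluster 7 (Int 1) at 17.2 ± 4.92 CPM, 15.8-fold below Cluster 3. Summed by class, Acss1 was at 155 ± 29.5 CPM in RGC, 47.9 ± 10.7 CPM in IPC, 34.4 ± 5.74 CPM in Int and 21.1 ± 2.77 CPM in PN. The fifth RGC cluster, Cluster 21 (Cortical hem RGC), was too low to judge for EtOH and lay at 17.5 ± 11.4 CPM (n = 10), near the level of Cluster 7 and 20th of 25 in the order, so the high level was not shared by all RGC clusters.

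The same was seen in the share of nuclei with at least 1 UMI of Acss1. To remove the effect of depth, each nucleus was thinned at random to 2000 UMIs, and nuclei with fewer were left out. Over all clusters 9.62% of 50163 thinned nuclei had a UMI, and 23.4% did before thinning. In Cluster 3 the share was 38.2% (1536 of 4016 nuclei, 95% Wilson interval 36.8 to 39.8%), in Cluster 12 28.0% (26.1 to 29.9%) and in Cluster 16 (Caudal Subcortical PN) 1.41% (0.87 to 2.29%). The intervals cover counting error only, and none of the clusters is known to lack the gene, so the share due to free RNA was not measured. Before thinning the shares were 68.3% in Cluster 3, 50.9% in Cluster 12 and 7.42% in Cluster 16. Both scales gave the same order of these clusters.

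Aldh1b1 encodes a mitochondrial aldehyde dehydrogenase closely related to Aldh2 that acts on acetaldehyde and other short aldehydes. It was highest in Cluster 6 (Non-mitotic IPC) at 60.4 ± 17.4 CPM, followed by Cluster 9 (Early PN) at 44.2 ± 16.7 CPM, Cluster 17 (Mitotic IPC) at 39.2 ± 15.7 CPM, Cluster 1 (Callosal PN) at 30.7 ± 7.77 CPM and Cluster 10 (Late Int Precursor) at 24.7 ± 7.25 CPM. Cluster 6 was above Cluster 9 in 11 of 11 embryos, by 16.2 ± 8.37 CPM, and the other 23 pairs of neighbours were within their spread. The lowest level at which it could be judged was 8.47 ± 5.31 CPM, 7.13-fold below Cluster 6, and it was found in Cluster 3, where Acss1 was highest. By class, Aldh1b1 was at 53.7 ± 15.9 CPM in IPC, 21.3 ± 4.83 CPM in PN, 14.6 ± 3.93 CPM in Int and 12.7 ± 4.85 CPM in RGC. Thinned to 2000 UMIs, 10.3% of the nuclei of Cluster 6 had a UMI (385 of 3732, 9.38 to 11.3%), against 0.97% in Cluster 3 (0.71 to 1.32%) and 3.73% over all clusters. Before thinning these shares were 26.1%, 3.83% and 12.5%.

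**Figure D2:**
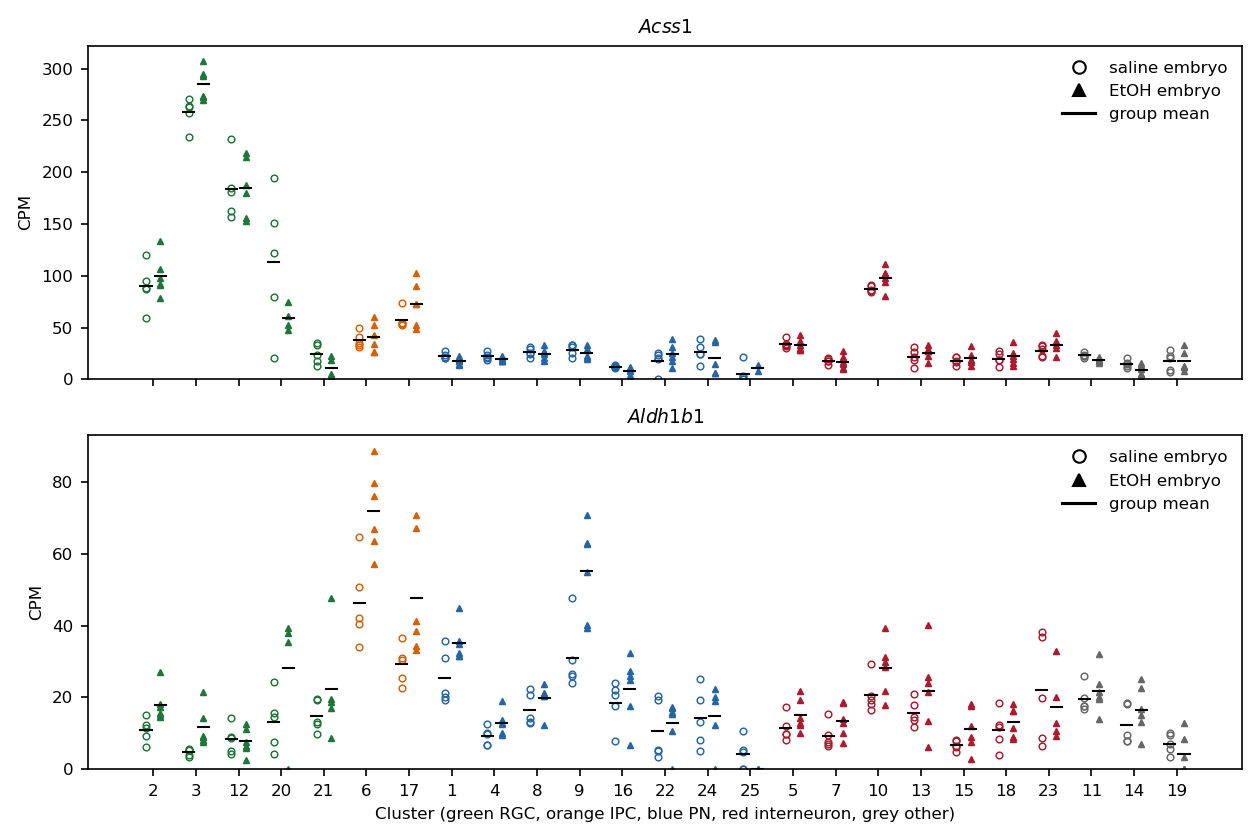
Level of Acss1 and Aldh1b1 in each cluster, in CPM, with clusters along the axis in order of cell class, 1 open circle per saline embryo, 1 triangle per EtOH embryo and a bar at each group mean. The points of Cluster 3 (234 CPM or more) lie above all points of the other clusters (232 CPM at most) for Acss1, while for Aldh1b1 those of Clusters 6, 9 and 17 overlap and several clusters have EtOH points above saline points.

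The promoters of these 2 genes are shown because they are the members with the strongest cell type pattern, and they differ in content of the dinucleotide CG. The sequences are those of RefSeq on GRCm38.p6, from 250 bases before to 50 bases after the start site, 5′ to 3′ on the strand of the gene, with each CG in capitals. Aldh1b1 (chr4:45798772-45799071, plus strand) has 7 CG, and Acss1 (chr2:150668191-150668490, minus strand) has 23. Of 32851 promoters of this length, 47.9% have fewer CG than Aldh1b1 and 78.5% fewer than Acss1, with a median of 7 and quartiles of 3 and 20. No methylation or binding was measured, so the content is a description of the sequence.
Aldh1b1: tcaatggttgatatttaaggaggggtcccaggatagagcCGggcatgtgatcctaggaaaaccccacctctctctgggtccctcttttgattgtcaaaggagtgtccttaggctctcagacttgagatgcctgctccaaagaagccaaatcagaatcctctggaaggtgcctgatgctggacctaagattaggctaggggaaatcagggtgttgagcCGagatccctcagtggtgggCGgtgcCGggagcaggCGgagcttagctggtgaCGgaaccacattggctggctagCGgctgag
Acss1: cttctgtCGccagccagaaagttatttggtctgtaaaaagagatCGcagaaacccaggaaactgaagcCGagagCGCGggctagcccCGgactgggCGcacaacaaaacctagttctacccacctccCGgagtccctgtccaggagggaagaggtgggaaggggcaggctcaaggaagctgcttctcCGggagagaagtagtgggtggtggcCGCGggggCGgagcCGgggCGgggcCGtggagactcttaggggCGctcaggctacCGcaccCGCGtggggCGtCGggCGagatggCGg

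Of the enzymes of the first step, Adh5 had its highest mean in Cluster 12, 16.8 ± 3.49 CPM, and its lowest in Cluster 25, 7.11 ± 4.07 CPM (n = 7). Where it could be judged, Cluster 2 was highest (14.1 CPM) and Cluster 7 lowest (7.95 ± 2.16 CPM), a 1.78-fold range. Its class levels were 14.3 ± 1.95 CPM in RGC, 12.7 ± 3.05 in IPC, 11.2 ± 1.10 in PN and 11.1 ± 1.27 in Int. Cat encodes catalase, the peroxisomal enzyme that breaks down hydrogen peroxide and can oxidise ethanol with it. Cat peaked in Cluster 24 at 26.4 ± 10.3 CPM, where it was too low to judge for EtOH. Among judged clusters, Cluster 6 was highest (20.1 ± 3.55 CPM) and Cluster 11 (Striatal Int) lowest (11.8 ± 3.29 CPM), a 1.70-fold range. Apart from Cat in Cluster 24, which lies above it, the levels given here are in the range of Hbb-bs over clusters given above. Whether any of these levels reflect the nuclei of each cluster or free RNA was not tested, and the same holds for the other members at such levels. The highest cluster exceeded 11 of the 24 others beyond the spread for each of the 2 genes. Shares of thinned nuclei with a UMI over all clusters were 2.36% for Adh5 (9.20% before thinning) and 3.18% for Cat (11.3%).

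Aldh2 encodes the main mitochondrial enzyme of acetaldehyde removal. Its highest mean was 16.5 ± 6.71 CPM in Cluster 20, and among judged clusters Cluster 12 held 15.2 ± 5.01 CPM and Cluster 1, the lowest, 6.69 ± 2.71 CPM, a 2.27-fold range. The RGC class held 12.3 ± 1.86 CPM and IPC 6.22 ± 1.52 CPM, the reverse of the order of Aldh1b1 in these classes. A UMI of Aldh2 was found in 1.92% of thinned nuclei and 7.28% before thinning.

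The aldehyde dehydrogenases of other pathways were found in all classes. Aldh3a2, the fatty aldehyde dehydrogenase, varied least, with 13.6 CPM in its highest judged cluster (Cluster 6) and 9.90 ± 2.27 CPM in its lowest (Cluster 2), a 1.37-fold range. Aldh5a1, the succinic semialdehyde dehydrogenase that completes the breakdown of GABA, ranged 2.45-fold, between 10.7 CPM (Cluster 2) and 4.35 ± 1.05 CPM (Cluster 1), and stood at 8.68 ± 1.81 CPM in interneurons and 5.18 ± 0.97 CPM in projection neurons. Aldh7a1, which oxidises the semialdehyde formed from lysine, ranged 2.41-fold, between 48.0 ± 10.5 CPM (Cluster 12) and 19.9 ± 3.67 CPM (Cluster 11). Its highest cluster exceeded 19 of 24 others beyond the spread, and its class levels were 39.2 ± 5.66 CPM in RGC and 23.7 ± 2.65 CPM in Int. Aldh9a1, which makes a precursor of carnitine, could be judged in Clusters 1, 3, 4, 7 and 8 and was highest there in Cluster 3 (11.5 CPM) and lowest in Cluster 8 (6.52 ± 1.99 CPM). No UMI of Aldh9a1 was seen in 398 thinned nuclei of Cluster 23, and none of Aldh1b1 or Aldh3a2 in 105 thinned nuclei of Cluster 25. Before thinning all 3 were found there. Aldh9a1 was at 2.84 ± 3.59 CPM in Cluster 23, and in Cluster 25 Aldh1b1 was at 2.95 ± 4.15 CPM. Aldh3a2 was at 15.9 ± 7.02 CPM in Cluster 25 (n = 7), its second highest mean, so its absence from thinned nuclei is not absence from the cluster.

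Acss2 encodes the acetyl-CoA synthetase of the nucleus and cytosol, which recaptures acetate for histone acetylation and lipids. Unlike Acss1, it was highest outside the progenitors, at 44.2 ± 7.26 CPM in Cluster 14 (Layer I), and lowest in Cluster 2 at 21.7 ± 3.24 CPM, a 2.04-fold range. Cluster 14 exceeded 20 of 24 others beyond the spread. Its class levels were 33.1 ± 5.73 CPM in IPC, 29.5 ± 3.10 in PN, 29.2 ± 2.72 in Int and 26.3 ± 2.53 in RGC. A UMI was found in 5.36% of thinned nuclei (17.7% before thinning).

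In the comparison of EtOH with saline, Aldh1b1 was higher after EtOH and was the sole member that passed the test with all clusters summed. In edgeR's quasi-likelihood test on counts summed per embryo, a gene was called when its p, adjusted over all genes tested, lay under 0.05 and its level was more than 25% higher or more than 20% lower than in saline. Such sums cannot tell apart a change in RNA per nucleus from a change in the mix of nuclei within a cluster or class. Aldh1b1 stood at 13.54, 14.05, 11.6, 17.3 and 23.2 CPM in saline embryos S1-1, S1-2, S2-1, S2-2 and S2-4. In EtOH embryos E1-1, E1-2 and E2-1 to E2-4 it stood at 21.3, 26.3, 21.7, 23.2, 25.5 and 22.4 CPM. The groups overlapped through S2-4, which lay among the EtOH embryos, while the other 4 saline embryos were below all 6. The means were 15.9 ± 4.53 CPM (n = 5) and 23.4 ± 2.05 CPM (n = 6), a log2 fold change of 0.50 with a standard error of 0.13 and an adjusted p of 0.0255. With nuclei thinned to 2000 UMIs the value was 0.56 and the call was lost (edgeR adjusted p = 0.0612). With equal weights for the 20 clusters that had at least 10 nuclei in every embryo, it was 0.52 and called (limma adjusted p = 0.0234). That fit called 13.2% of all genes. The mix of nuclei within a cluster was not tested.

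In the edgeR fit with all clusters summed, the call of 1 member in 10 stood against 12.1% of all 18138 genes tested. Of all genes 8.55% were called higher, so the members as a group were not called more often than other genes. Their median log2 fold change was -0.04, against 0.01 over all genes, with 3 members positive and 7 negative. Adh5 had the next smallest p. Its levels were 11.4, 11.3, 12.9, 13.2 and 12.4 CPM in the saline embryos in the same order and 11.1, 12.9, 10.3, 10.7, 11.8 and 11.6 CPM in the EtOH embryos. The groups overlapped, and the fold change was -0.18 (12.3 ± 0.838 and 11.4 ± 0.929 CPM, adjusted p = 0.0825 by edgeR). Acss1 levels were 51.9, 59.2, 71.4, 43.2 and 56.4 CPM in saline and 58.7, 40.2, 49.9, 53.1, 52.5 and 52.1 CPM in EtOH embryos. These overlapped widely, with a log2 fold change of -0.22 and an edgeR adjusted p of 0.213.

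The remaining 7 members had log2 fold changes between -0.14 (Aldh2, edgeR adjusted p = 0.295) and 0.06 (Aldh7a1, adjusted p = 0.438). Cat was at -0.09 (adjusted p = 0.356), Acss2 at -0.05, Aldh3a2 at -0.04, Aldh5a1 at -0.02 and Aldh9a1 at 0.04, with adjusted p of 0.557 or more for these last genes. None of these tests shows that the level was the same in the 2 groups.

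**Figure D3:**
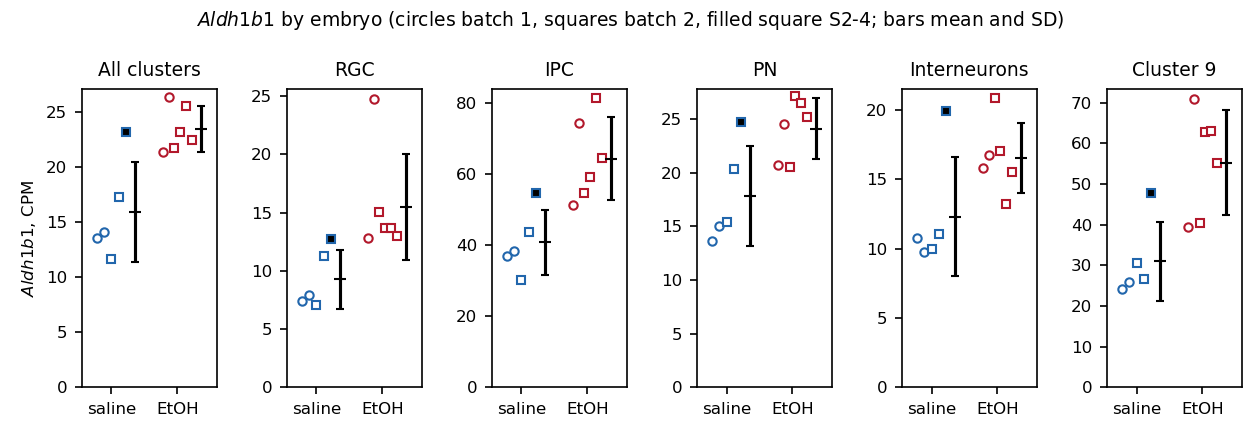
Aldh1b1 in each embryo, in CPM, for all clusters summed, the RGC, IPC, PN and Int classes and Cluster 9, with 1 point per embryo (circles for batch 1, squares for batch 2, the filled square for S2-4) and bars for the mean and SD of each group. S2-4 is the highest saline embryo in every panel, and in RGC all 6 EtOH embryos lie above all 5 saline embryos.

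By class, Aldh1b1 was higher after EtOH in intermediate progenitors, the class where its level was highest. In IPC it was at 37.1, 38.4, 30.3, 43.9 and 54.8 CPM in the saline embryos and at 51.5, 74.6, 54.7, 59.3, 81.5 and 64.6 CPM in the EtOH embryos. The highest saline embryo, S2-4, overlapped with the 2 lowest EtOH embryos, and the others did not overlap. The log2 fold change was 0.58 (40.9 ± 9.17 and 64.4 ± 11.7 CPM, edgeR adjusted p = 0.0479), where 1.52% of genes were called. With the batch as a block the value was again 0.58 but the call was lost (edgeR adjusted p = 0.0577). It was also lost with counts summed per dam (adjusted p = 0.101) and with the dam as a random block in limma voom (adjusted p = 0.0507), where RGC was called instead. Some markers of neighbouring stages moved in the same sums. The PN marker Neurod2 was called lower in IPC (112 ± 17.98 and 83.8 ± 9.96 CPM, log2 fold change -0.49, edgeR adjusted p = 0.0479), in PN (-0.68, adjusted p = 0.0234) and in Cluster 9 (-0.64, adjusted p = 0.0445). The other 2 of 3 PN markers were not called in IPC or PN, and 1 of the 3 was positive in each. In IPC 5 of 6 RGC markers were positive with 0 called. In PN 4 of 4 Int markers were negative with 1 called. The IPC marker Eomes was at -0.24 in IPC (edgeR adjusted p = 0.0808) and was called lower in PN (-0.66, adjusted p = 0.0260), and the part of such shifts in the result for Aldh1b1 was not tested. For Aldh1b1 the same direction was seen in the other classes, though none passed. The log2 fold change was 0.66 in RGC (9.28 ± 2.54 and 15.5 ± 4.59 CPM, edgeR adjusted p = 0.0557), 0.40 in PN (adjusted p = 0.0569) and 0.39 in Int (adjusted p = 0.132). In RGC the saline embryos were at 7.39, 7.95, 7.11, 11.2 and 12.7 CPM and the EtOH embryos at 12.9, 24.7, 15.1, 13.6, 13.6 and 12.95 CPM, without overlap. The share of all genes without overlap in these sums was not counted, so the separation is a description. The genes called were 3.79% in RGC, 6.53% in PN and 4.83% in Int, and 1 of the 40 tests of a member in a class was called.

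In the clusters, Aldh1b1 was called in Cluster 9 (Early PN), and this was 1 call in 164 tests of a member in a cluster, where 0.792% of all tests across the 25 clusters were called. The saline embryos were at 24.1, 25.98, 30.5, 26.6 and 47.7 CPM and the EtOH embryos at 39.4, 70.8, 40.3, 62.7, 62.9 and 55.1 CPM. S2-4 was again the saline embryo within the EtOH range. The log2 fold change was 0.81 with a standard error of 0.18 (31.0 ± 9.64 and 55.2 ± 12.9 CPM, edgeR adjusted p = 0.0376), and 1.27% of genes were called in Cluster 9. With the batch as a block it was 0.78 and no longer called (edgeR adjusted p = 0.0570). With nuclei thinned to 2000 UMIs, which removes the difference in depth per nucleus, it was 0.73 and not called (edgeR adjusted p = 0.112), and Cluster 6 was called instead. The fold change of Aldh1b1 was positive in 16 of 16 clusters tested, with a median of 0.53 and a range of 0.16 to 1.32, and 9 of these had an unadjusted p under 0.05. The same embryos contribute to all clusters, so these are not independent results. The share of all genes with such a p in these clusters is not given here. In Cluster 6, where Aldh1b1 was highest, the means were 46.4 ± 11.8 and 72.0 ± 11.6 CPM (log2 fold change 0.58, edgeR adjusted p = 0.0647). In Cluster 3, the lowest cluster that could be judged, saline embryos were at 3.44 to 5.62 CPM and EtOH embryos at 7.45 to 21.6 CPM, on 8 to 40 UMIs per embryo (log2 fold change 1.08, edgeR adjusted p = 0.0519). Of the pairs of a member and a cluster 3 had no overlap of the groups, 1 each of Aldh1b1, Aldh9a1 and Acss2. The share of all genes without overlap was not counted.

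**Figure D4:**
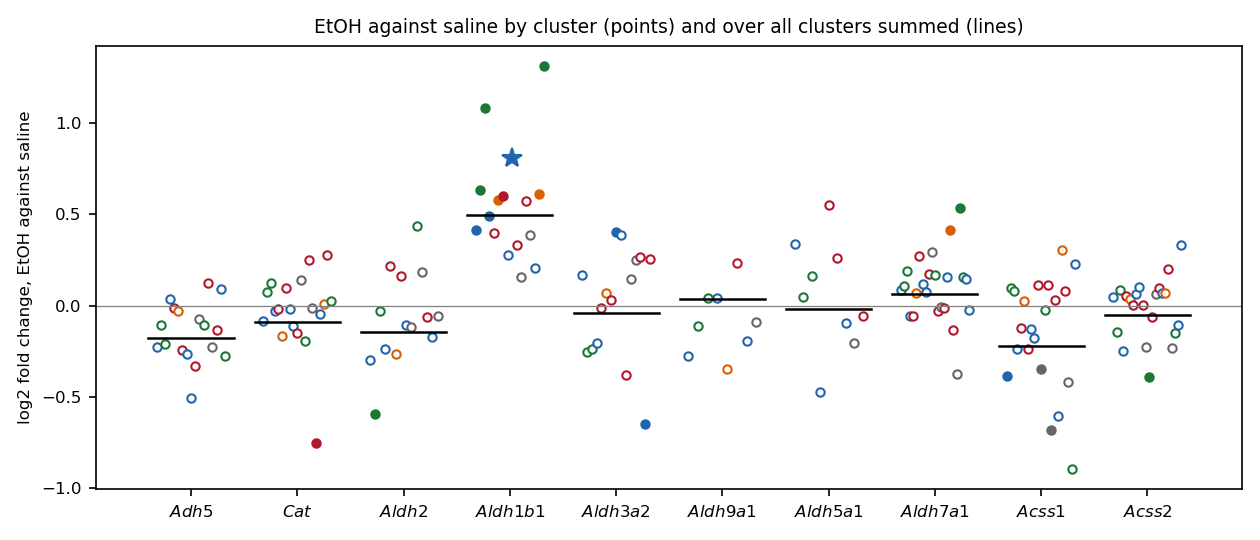
Log2 fold change of EtOH over saline for each member in each cluster in which it was tested, by edgeR, with 1 point per cluster coloured by cell class, filled where the unadjusted p was under 0.05, a star for the called test and a line for all clusters summed. All 16 points of Aldh1b1 lie above 0 (0.16 to 1.32), and those of the other members lie on both sides of 0.

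The other 9 members had no call in any cluster, and of these Adh5 was mostly negative. Among clusters that could be judged, Adh5 was positive in 1 of 10, Aldh2 in 4 of 10, Cat in 4 of 14, Acss1 in 7 of 16, Aldh3a2 in 6 of 10 and Aldh9a1 in 3 of 5. Acss2 was positive in 13 of 21, Aldh7a1 in 14 of 20 and Aldh5a1 in 5 of 7. A further 36 tests were of pairs too low to judge, and with these the count for Aldh9a1 was 3 of 8, so its majority changed sides. Of 164 tests 19 had an unadjusted p under 0.05, and 9 of these were of Aldh1b1. The share of all genes with such a p, or with each sign, is not given here. These counts are therefore a description and no result about the members as a group. The rest of these p were 3 for Acss1, 2 each for Aldh3a2 and Aldh7a1, and 1 each for Aldh2, Cat and Acss2. Tests of the other members included Aldh2 in Cluster 2 (11.5 ± 1.91 and 7.70 ± 2.07 CPM, log2 fold change -0.60, edgeR adjusted p = 0.0927). Acss1 in Cluster 1 was at -0.38 (adjusted p = 0.105) and Acss2 in Cluster 12 at -0.39 (adjusted p = 0.214). Over all clusters tested, the fold changes of these 9 members ran from -0.90 (Acss1) to 0.55 (Aldh5a1). Acss1 in Cluster 3, its highest cluster, was at 258 ± 14.3 CPM in saline and 285 ± 15.3 CPM in EtOH (log2 fold change 0.08, edgeR adjusted p = 0.516). In Cluster 20 its saline embryos ranged from 20.1 to 195 CPM, so the fold change of -0.90 there (edgeR adjusted p = 0.644) rested on a spread larger than the difference.

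S2-4 stood apart from the other saline embryos in Aldh1b1 and had their lowest median of UMIs per nucleus, though not their lowest total. It is singled out from the fits that leave out each embryo in turn after its values were seen, and as its level goes against the difference, a larger fold change and smaller p without it follow from that choice and are no further evidence. The log2 fold change of Aldh1b1 was then 0.64 with all clusters summed (edgeR adjusted p = 0.000237), 0.69 in IPC (adjusted p = 0.000975) and 1.02 in Cluster 9 (adjusted p = 0.000084). Without S2-4, 9 of 162 tests of a member in a cluster were called (5.56%), 7 of Aldh1b1, in Clusters 1, 2, 3, 4, 6, 7 and 9, and the others Acss1 lower in Cluster 1 and Aldh2 lower in Cluster 2. Calls rose over all genes too, since 8.78% of all tests in clusters were then called and 16.6% of genes were called higher with all clusters summed. Leaving out S1-1, S1-2, S2-1, E1-2 or E2-3 instead lost the call of Aldh1b1 over all clusters (adjusted p of 0.0517 to 0.0680), and leaving out any embryo other than S2-4 lost the calls in IPC and Cluster 9. Over all 11 such fits the fold changes stayed at 0.50 to 0.69 in IPC and 0.72 to 1.02 in Cluster 9.

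The effect on Aldh1b1 was in the same direction in both batches. Within batch 1 it was 0.64 (edgeR adjusted p = 0.0092), in a fit with 17.9% of genes called, and within batch 2, which holds S2-4, it was 0.42 (unadjusted p = 0.0558, adjusted p = 0.271), in a fit that called 0.00544% of genes. Each batch holds a single dam per group, so within a batch EtOH cannot be told apart from the dam. These p-values measure the spread between littermates. The same limit holds for the difference between the batches, which was -0.22 (edgeR, unadjusted p = 0.458, adjusted p = 0.802). No gene was called for this difference (0.00% of 18138, 1517 of them with an unadjusted p under 0.05), and the smallest p among members was that of Aldh3a2 (0.30, unadjusted p = 0.0347, edgeR adjusted p = 0.588). The effect of EtOH was also compared between RGC, PN and Int within embryos with limma, which called no gene for RGC against PN, RGC against Int or PN against Int (0.00% each, with 1323, 1103 and 717 unadjusted p under 0.05). For Aldh1b1 the effect in RGC exceeded that in PN by 0.21 (unadjusted p = 0.241), and the smallest p of a member was Aldh3a2 in RGC against PN (-0.28, unadjusted p = 0.0107, limma adjusted p = 0.394). The effect in IPC was not compared with that in another class.

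The share of nuclei with a UMI, which rests on the same counts and is no independent result, gave the same member. After thinning to 2000 UMIs, 3.14 ± 0.901% of nuclei had a UMI of Aldh1b1 in saline embryos and 4.63 ± 0.497% in EtOH embryos. The saline embryos were at 3.25, 2.97, 1.77, 3.47 and 4.24% and the EtOH embryos at 4.33, 4.62, 4.25, 4.12, 5.31 and 5.16%, so that S2-4 lay above 1 EtOH embryo, E2-2. The difference of 1.49 percentage points had p = 0.0043 in a two-sided exact permutation test over all 462 splits of the embryos and p = 0.0095 over the 210 splits within batches. This was 1 of 10 tests, and no other member had p under 0.05, the next being Aldh7a1 (5.47 ± 0.631 and 6.12 ± 0.246%, exact permutation p = 0.0541). Only the members were tested in this way, so how often other genes would pass is not known. Without thinning, 9 of the 10 members had p under 0.05 and lower shares in EtOH embryos, which had fewer UMIs per nucleus, while Aldh1b1 was at 12.1 and 13.1% (exact permutation p = 0.426). Thinned to 1000 UMIs, Aldh1b1 differed by 0.832 percentage points (exact permutation p = 0.0346) and Adh5 by -0.187 (exact permutation p = 0.0195).

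Among 8993 genes with a mean of at least 10 CPM, the gene whose profile over the 25 clusters was most like that of Aldh1b1 was Igfbpl1, a secreted protein gene of the insulin-like growth factor binding family that is known from progenitors and young neurons (Pearson r = 0.98 of log2(mean CPM + 1), n = 25 clusters). Fbxo11 and Kdm1a followed, at 0.91 each. The points share the same libraries and clusters, so r is a description. Igfbpl1 is also the nearest gene downstream of Aldh1b1. On GRCm38, Aldh1b1 lies on chromosome 4 from 45799022 to 45804604 on the plus strand and Igfbpl1 from 45809468 to 45826923 on the minus strand, so that the 2 genes point towards each other with a gap of 4864 bases and their annotated models do not overlap. Of 21 pairs of a member and a gene within 20000 bases, the other 20 had r between -0.47 and 0.62. Igfbpl1 was highest in Clusters 6, 9, 17 and 1 (742, 685, 529 and 430 CPM), the clusters that lead for Aldh1b1 in the same order.

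Per 100 UMIs of Igfbpl1 there were 5.41 (Cluster 12) to 8.45 (Cluster 16) UMIs of Aldh1b1 over all 25 clusters, beside a 7.13-fold range of Aldh1b1 itself over the clusters that could be judged. Over embryos the ratio was 5.59, 6.26, 5.80, 6.94 and 7.38 in saline and 6.15, 9.002, 7.66, 7.81, 8.86 and 7.35 in EtOH, so the groups overlapped, with 4 of the 6 EtOH embryos above all saline embryos. Igfbpl1 with all clusters summed was at 246 ± 42.5 CPM in saline and 302 ± 22.9 CPM in EtOH (log2 fold change 0.23, edgeR adjusted p = 0.0683), not called, and S2-4 at 314 CPM was again within the EtOH range. Without S2-4, Igfbpl1 was called higher in IPC (log2 fold change 0.34, edgeR adjusted p = 0.0011) and in Cluster 9 (0.48, adjusted p = 4.9e-05), where Aldh1b1 was called too, and also in Clusters 1, 6, 10 and 16. With all clusters summed it then had an adjusted p of 0.0045 at 0.30, below the fold threshold. S2-4 was singled out after its values were seen, so these calls follow from that choice and are no further evidence. Over all genes 8.78% of tests in clusters were called without S2-4, against 0.792% with it. The reads were counted by Cell Ranger with its default settings, which count for a gene only reads on that gene's strand. The 2 genes lie on opposite strands, but the strand of the reads at this locus was not examined. Whether reads of 1 gene were counted for the other was not tested.

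**Figure D5:**
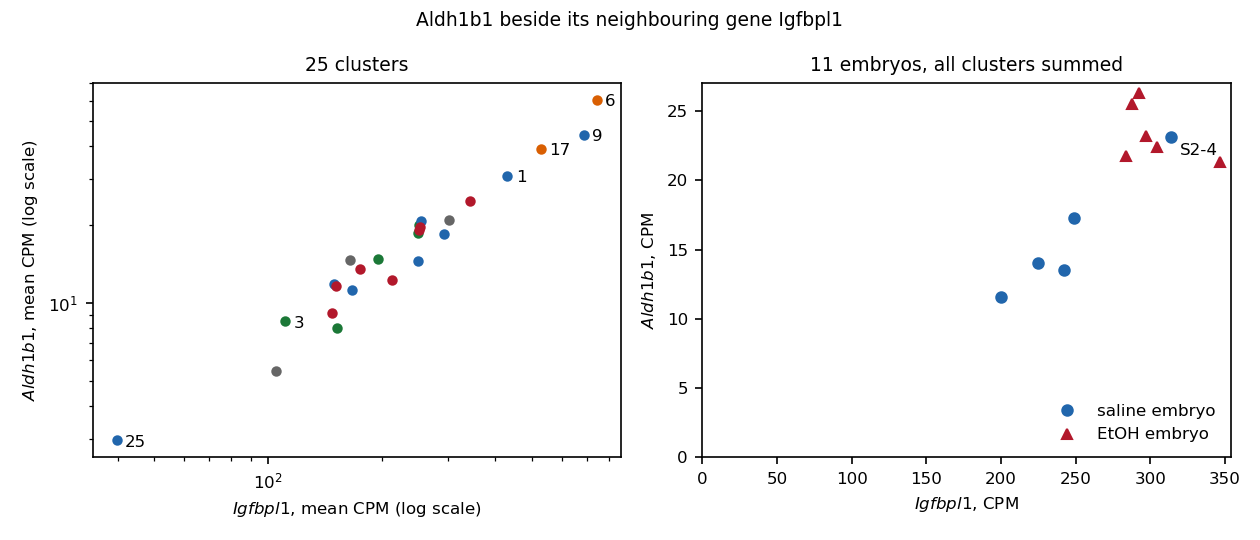
Level of Aldh1b1 against that of Igfbpl1, in CPM, with 1 point per cluster on log axes in the left panel and 1 point per embryo, all clusters summed, on linear axes in the right panel. The cluster points follow a line of nearly constant ratio (5.41 to 8.45 Aldh1b1 UMIs per 100 of Igfbpl1), and S2-4 lies with the EtOH embryos.

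Genes with a profile like that of Acss1 included Cd247 (r = 0.94) and Dcp2 (r = 0.93). For the other members the most similar gene reached r of 0.85 for Adh5 (Mrpl47) and Aldh9a1 (Arhgap26), 0.82 for Aldh7a1 (Cd46), 0.80 for Aldh2 (Wdr34) and Aldh5a1 (Meaf6), 0.77 for Acss2 (Slc17a5), 0.75 for Cat (Eloa) and 0.64 for Aldh3a2 (Adamts17). Some members overlap genes on the other strand in GENCODE M21, whose reads the default counting keeps apart by strand. These are Aldh2 (Gm42879), Aldh5a1 (4932702P03Rik and 9330162012Rik), Aldh7a1 (Phax, Mir1258 and AC162035.3), Acss1 (E130215H24Rik) and Acss2 (Ggt7, Acss2os and Gss). Acss2 also overlaps Mipep-ps and Gm20637 on its own strand, and strand does not separate these. Adh5, Aldh1b1, Aldh3a2, Aldh9a1 and Cat have no such partner.

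Other genes of the same reactions were tested with all clusters summed, where 12.1% of genes were called. Of 8 further alcohol oxidising genes 7 were in the tables and 2 were tested, with no call. The alcohol dehydrogenase genes Adh1, Adh4, Adh6a, Adh6b and Adh7 were at 0.12 CPM or less and untested, and Akr1a1, an aldehyde reductase, had the smallest p (log2 fold change -0.11, edgeR adjusted p = 0.0948). Adhfe1, the other gene tested, was called higher with equal cluster weights (0.34, limma adjusted p = 0.0306). Of 15 further aldehyde dehydrogenases 13 were in the tables and 9 were tested, with no call, the smallest p being that of Aldh1a1, a retinaldehyde dehydrogenase (0.38, edgeR adjusted p = 0.159). With equal cluster weights Aldh1l1 was called higher (0.53, limma adjusted p = 0.0251). Of 7 acetate and acetyl-CoA genes 1 was called, Acss3, the third of the short-chain synthetases, which fell from 5.40 ± 2.15 to 3.53 ± 0.547 CPM (log2 fold change -0.67, edgeR adjusted p = 0.0390). With equal cluster weights it was at -0.13 and not called (limma adjusted p = 0.478). None of 8 peroxisome genes was called, though the import factor Pex13 had an adjusted p of 0.0195 at a log2 fold change of -0.18, below the fold threshold. Of 5 enzymes that stand next to members in their pathways 1 was called, Bbox1, which makes carnitine after Aldh9a1 has acted, and it rose from 1.64 ± 0.745 to 2.74 ± 0.352 CPM (0.68, edgeR adjusted p = 0.0422). Of 6 radial glial markers 1 was called, the factor Sox2, which was lower (log2 fold change -0.59, edgeR adjusted p = 0.0198), with 2 of the 6 positive. Within the RGC class none was called and 5 of 6 were positive. With equal cluster weights, where 13.2% of genes were called, Hes1 (0.47) and Fabp7 (0.39) were called higher by limma while Sox2 (-0.33) was lower.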

How the data were processed

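Nuclei of the cortices were profiled with 10x 3′ chemistry, and of 12 embryos listed in the labels 11 were used here. The authors ran Cell Ranger with default settings, which count sense reads, on the mm10 genome, filtered nuclei and genes, removed thalamic, low-transcript and non-neuronal clusters, and deposited raw UMI counts, without normalization, as 1 table per embryo and cluster. Doublet removal is not given in the sources used here, and doublets were not called. A saline embryo listed in the labels, S2-3, was not used here. The paper states that 1 saline sample, which it does not name, was taken out because its cells fell differently over the clusters. Cyp2e1, Aldh3b2 and Aldh4a1 were not analysed here. The members and the other gene lists were chosen with earlier results of these data known.

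Counts were summed per embryo and cluster, class or over all clusters with Python 3.11.15 (NumPy 2.4.6, pandas 2.3.3), leaving out embryos with fewer than 10 nuclei in a cluster and requiring at least 2 embryos per group. EtOH was tested against saline with edgeR 4.0.16 in R 4.3.3 (glmQLFit with the robust option, TMM, filterByExpr) on all genes, without covariates, with Benjamini-Hochberg adjustment per fit. The fit was also run on simulated counts with known changes and no effect of the dam. Standard errors were derived from the F statistic as the absolute log2 fold change over its square root. Effects in 2 classes were compared with limma 3.58.1 on within-embryo differences of log2 CPM with a prior count of 2. Shares of nuclei were compared with exact permutation tests written in Python, Wilson intervals came from SciPy 1.17.1, and figures were drawn with matplotlib 3.10.9. With 14078316 to 83061737 UMIs per embryo, a gene in a small cluster rests on few counts, which the limit of 10 UMIs addresses. Embryos of 1 dam differed by more than sampling noise, so none was taken as a duplicate. The chi-square per gene was 48.7 to 89.7 between embryos of dam S2, with 61.9 for S2-1 and S2-2. Within the other dams it was 4.33 to 12.3. Nothing in the labels other than the dam and batch separates the embryos, and p-values measure the spread between embryos of 2 dams per group.

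Batch comes from the labels and pairs dams S1 with E1 and S2 with E2. The differences S2 minus S1 and E2 minus E1 had a correlation of 0.0075 over 18138 genes, and the fit with batch as a block was run as an alternative. The other alternatives were RLE size factors, DESeq2 1.42.0, no filter on low genes, counts summed per dam, voom of limma with dams as random blocks, thinned nuclei, at least 20 nuclei, no fold threshold, equal cluster weights and each embryo left out in turn. The text names all members, gives values in every embryo for those called and the 3 with the smallest p over all clusters, and names from each other list the called genes, at most 3 per direction, or else the gene with the smallest p. Igfbpl1, Pex13, P2ry12, C1qa and Olig1 are named with values chosen after these were seen. 1 gene that the rule on similar profiles selects is not reported here. Gene positions came from GENCODE M21 (GRCm38).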

Additional observations from a re-analysis of the deposited data

Results flagged for a closer look

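Within each group of embryos the highest and the lowest value were compared with the rest by Dixon's gap ratio, for the 10 members in all clusters summed, the 4 classes and the thinned share of nuclei, separately in saline and EtOH. Of 120 such groups 7 held an embryo beyond the 95% critical value, where chance gives about 1 in 20. In all clusters summed, Acss2 in saline embryo S2-2 was at 31.5 CPM, with the other saline embryos at 27.7 to 28.6 CPM. In interneurons the same embryo was at 33.5 CPM of Acss2, with the others at 26.7 to 28.2 CPM. In IPC, Acss2 in S1-1 was at 41.5 CPM and in the other saline embryos at 27.1 to 30.9 CPM. Aldh1b1 in interneurons was at 19.9 CPM in S2-4 and at 9.76 to 11.1 CPM in the other saline embryos. Aldh7a1 in RGC was at 40.0 CPM in S2-4 and at 33.7 to 35.4 CPM in the others. Among EtOH embryos, Aldh1b1 in RGC was at 24.7 CPM in E1-2 and at 12.9 to 15.1 CPM in the other embryos. The thinned share of nuclei with a UMI of Acss1 was 7.44% in E1-2 and 9.20 to 10.2% in the other EtOH embryos.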

How the results depend on the processing

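With all clusters summed, Aldh1b1 was the 1 member called under each alternative except thinned nuclei, where 0 were called (log2 fold change 0.56, edgeR adjusted p = 0.0612), and some fits without 1 embryo, which gave 0 to 1 calls and 0.40 to 0.64 for Aldh1b1. Adh5 was never called, though without S2-4 it had an edgeR adjusted p of 0.0479 at -0.19, below the fold threshold. Its adjusted p also lay under 0.05 in at least 1 other alternative, without a call. In the 25 clusters 1 member test was called, against 3 with DESeq2, 3 with voom, 4 without a filter on low genes and 0 with the batch as a block, and 0 to 9 without 1 embryo. Thinned nuclei also gave 1, in Cluster 6 in place of Cluster 9 (0.73, adjusted p = 0.112). In the classes 1 was called, against 3 with DESeq2, 0 with counts summed per dam and 0 with the batch as a block, and 0 to 4 without 1 embryo. Voom with dams as blocks gave 1, in RGC in place of IPC (0.58, adjusted p = 0.0507). The batch block changed no other call. Shares gave 1 member with p under 0.05 in exact permutation tests, against 9 without thinning and 2 thinned to 1000 UMIs, and 1 to 2 without 1 embryo. Directions of members that were not called reversed with equal cluster weights for Aldh3a2 (0.013), Aldh5a1 (0.066), Cat (0.027), Acss1 (0.071) and Acss2 (0.010), and with thinned nuclei for Aldh9a1 (-0.0094) and Acss2 (0.0066). Without 1 embryo Aldh5a1 ran from -0.069 to 0.051. Among shares, in percentage points, the sign reversed without thinning for Aldh5a1 (-1.26), Aldh7a1 (-3.12), Aldh9a1 (-1.21) and Acss2 (-3.16), and thinned to 1000 UMIs for Aldh3a2 (0.145), Aldh9a1 (-0.0116) and Cat (0.111). Shares without 1 embryo ran from -0.0862 to 0.0970 for Aldh5a1, -0.0162 to 0.0910 for Aldh9a1, -0.0136 to 0.314 for Acss2 and -0.819 to 0.0885 for Acss1. Thinned nuclei moved the highest level by more than its SD for Adh5 in Cluster 12 (12.9 CPM) and Acss1 in Cluster 3 (293 CPM). The causes were not tested. Depth limits the 122 pairs that were too low to judge.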
